A study of Mus musculus with 4 samples.

Results

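The nuclear-encoded genes of the mitochondrial respiratory chain were followed in mouse thymocytes with and without hnRNP L, an RNA-binding protein that regulates splicing. Members were the gene symbols of the expression tables that begin with Ndufa, Ndufb, Ndufc, Ndufs, Ndufv, Uqcr, Cox4 to Cox8 or Atp5, together with Sdha, Sdhb, Sdhc and Sdhd. This gave 90 genes of 22730. By the complex in which their products work, 40 belong to complex I, 4 to complex II, 8 to complex III, 20 to complex IV and 15 to complex V, and 3 share only the name. The study compared total thymocytes of 2 wild-type mice with those of 2 hnRNP L knockout (KO) mice, 1 library per mouse. For all 4 mice the labels state one mixed background with 4 components: C57BL/6, LckCre transgenic, a tdTomato and EGFP reporter at Gt(ROSA)26Sor, and CD45.1. The Lck promoter is active in the T cell lineage. Neither the Cre status of each mouse, the exons of Hnrnpl removed nor the ages are stated in the labels.

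The respiratory chain lies in the inner mitochondrial membrane. Complexes I and II pass electrons from NADH and succinate to ubiquinone, complex III passes them on to cytochrome c, and complex IV passes them to oxygen. Complexes I, III and IV pump protons, and complex V, the ATP synthase, uses the proton gradient to make ATP. A few subunits are encoded by mitochondrial DNA. The genes described here are the nuclear ones, whose products are imported from the cytosol.

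The libraries held 27548708 to 51544714 reads on genes, and the KO libraries were the shallower pair. Levels in CPM are counts per 1000000 reads on genes, after scaling of each library by its TMM factor. Hnrnpl itself stood at 854 and 813 CPM in wild type, against 467 and 208 CPM in KO. Its log2 fold change was -1.30 ± 0.42 (SE, n = 2 per group, adjusted p = 0.486, edgeR quasi-likelihood test). Markers of double-positive thymocytes, the main thymocyte stage, summed to between 1076 and 1398 RPKM (reads scaled by transcript length and mapped reads) in every library. Markers of erythroid cells summed to 128 RPKM in KO replicate 1, against 26.0 to 41.6 RPKM in the other libraries, while those of thymic epithelium and stroma summed to 10.3 RPKM in KO replicate 2, against 4.75 to 5.68 RPKM. Markers of mature single-positive thymocytes were lowest in KO replicate 2, at 81.8 RPKM against 108 to 117 RPKM. The part of these markers in the values below was not tested. All 6 muscle markers together reached at most 0.60 RPKM and all 5 fat markers at most 4.08 RPKM. In bulk RNA, fewer cells of a type and less RNA per cell cannot be told apart. With 2 samples a group, p-values measure only the spread between these samples.

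Subunits of the c ring of complex V are shown first, because 3 nuclear genes, Atp5g1, Atp5g2 and Atp5g3, encode the same mature protein and differ in their targeting presequence and in silent bases. In the 60 coding bases below, taken from RefSeq-matched GENCODE M21 transcripts and printed 5′ to 3′, 48 positions are the same in all 3 genes. Capitals mark bases that differ from Atp5g3, which are 9 in Atp5g1 and 10 in Atp5g2.
Atp5g1: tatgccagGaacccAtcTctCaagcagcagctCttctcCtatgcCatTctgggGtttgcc
Atp5g2: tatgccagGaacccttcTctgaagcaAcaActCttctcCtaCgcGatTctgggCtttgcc
Atp5g3: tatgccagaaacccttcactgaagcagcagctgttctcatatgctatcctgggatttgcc

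The 3 c-subunit genes had very different levels per length in the deposited transcript counts. Atp5g3 had 134, 137, 129 and 131 RPKM in wild-type replicates 1 and 2 and KO replicates 1 and 2, the order used throughout. Atp5g1 had 0.45, 0.72, 0.61 and 0.84 RPKM, and Atp5g2 had 3, 0, 1 and 0 transcript reads. The junction tables gave another picture of the same genes. Reads spanning known exon junctions of Atp5g2 numbered 163, 266, 107 and 146, so 682 in all against 4 transcript reads. Atp5g1 had 652 known-junction reads against 192 transcript reads, and Atp5l, the g subunit of the ATP synthase membrane part, had 518 against 155. A read across an exon junction also lies on a transcript of the gene. Junction reads cover all known junctions of a gene, and transcript reads 1 row per symbol, of 2 rows for Atp5g1. These 3 were the only ones of the 84 members with at least 20 known-junction reads to have more junction than transcript reads, or 3.571%, against 225 of 10713 genes, or 2.1%.

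Transcript reads were counted at a mapping quality of at least 10, per the file headers, and no source used here gives the minimum for junction reads. The 3 genes were among the 8 members with at least 50% of their transcript 25-mers also present in a transcript of another gene. That share was 87.8% for Atp5g2, whose closest match is Gm10175, 70.0% for Atp5l, closest to the processed pseudogene Gm10221, and 68.9% for Atp5g1, closest to the processed pseudogene Gm10039. A processed pseudogene is an intron-free genomic copy of a spliced transcript. Windows of 40 bases across the junctions occur whole in the closest match for 4 of 4 junctions of Atp5g2, 2 of 2 of Atp5l and 3 of 4 of Atp5g1, the exception being exon 1 to 2. In the examples below, 20 coding bases before each junction are in lower case and the 20 after it in capitals. Both are among the windows found whole.
Atp5g2, exon 4 to 5, mm9 chr15:102493559-102495485, minus strand: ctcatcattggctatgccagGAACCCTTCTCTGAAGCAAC
Atp5l, exon 2 to 3, mm9 chr9:44721549-44722734, minus strand: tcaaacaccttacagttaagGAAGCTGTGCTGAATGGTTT

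Shared sequence was common among the other members as well. Of the 90 transcripts, 65 shared at least one 25-mer with another gene, and for 51 the closest gene was a pseudogene. The median member shared 2.78% of its 25-mers. Over the members with under 10% shared, the median was 15.4 known-junction reads per 100 transcript reads (n = 51). It was 26.2 from 10% to 50% (n = 25) and 56.9 from 50% upward (n = 8), as the plot of junction against transcript reads shows. Without Atp5g2, Atp5g1 and Atp5l the last median was 18.8 (n = 5, a subset chosen after seeing the data), so its height rests on these 3 genes. Other members with much shared sequence and low transcript counts were Cox7c, a small complex IV subunit (56.4% shared, 2.49 to 4.67 CPM), and Ndufb4, an accessory subunit of complex I (38.6% shared, 1.91 to 3.18 CPM). As much shared sequence went with higher counts in the other 4 members from 50% upward. These were Atp5h, a stalk subunit of ATP synthase (65.1% shared, 33.7 to 43.5 CPM), Ndufa12, an accessory subunit of complex I (60.5%, 11.2 to 11.5 CPM), Uqcrb, a small subunit of complex III (57.3%, 24.5 to 29.6 CPM), and Ndufs3, a core subunit of complex I (55.2%, 23.3 to 28.3 CPM).

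**Figure D1:**
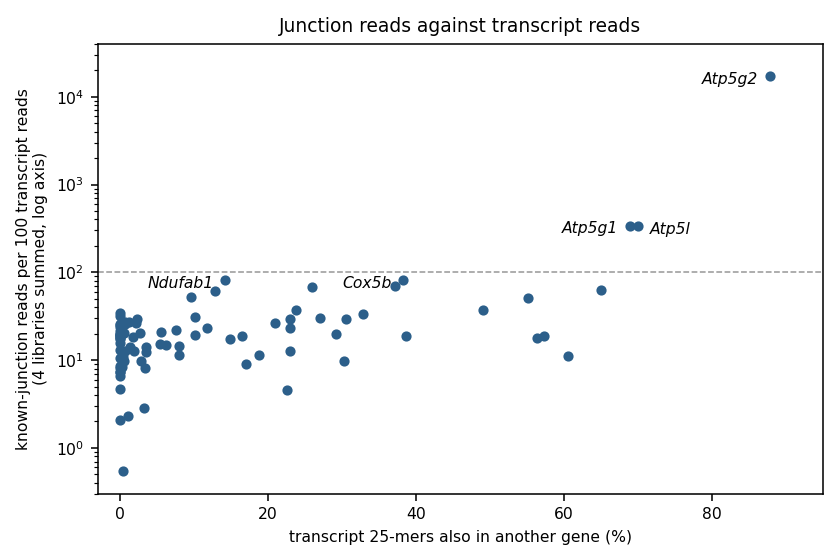
Known-junction reads per 100 transcript reads (log axis, 4 libraries summed) against the percent of transcript 25-mers also found in another gene, one point per member with at least 20 known-junction reads. Atp5g2, Atp5g1 and Atp5l lie above the dashed line at 100, where both counts are equal.

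Levels per length differed widely among the members, as the plot of levels in the 4 libraries shows. The median member had 25.1 RPKM, against 0.93 RPKM over the 19743 genes with reads, and 64 of the 90 members had at least 10 RPKM. The order was led by the catalytic head of ATP synthase. Atp5b, its beta subunit, averaged 229 RPKM and Atp5a1, its alpha subunit, 180 RPKM. Their values lay at 247, 235, 217 and 218 RPKM for Atp5b and at 191, 200, 171 and 160 RPKM for Atp5a1, so the ranges of the pair did not overlap. Next came Atp5g3, Cox4i1 and Cox6a1, with means of 133, 122 and 112 RPKM. Atp5g3 lay at 129 to 137 RPKM and Cox4i1 at 111 to 138 RPKM, so these neighbours overlapped.

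The levels of the complexes overlapped. The median member level was 20.1 RPKM in complex I, 35.8 in complex II, 35.4 in complex III, 19.1 in complex IV and 40.1 in complex V. The 4 complex II genes were the most even set, from 29.2 to 47.6 RPKM. Sdha, the flavoprotein of succinate dehydrogenase, was at the top of these and Sdhd, a membrane anchor, at the bottom. In complex I, the 7 catalytic core genes had a median of 21.8 RPKM, the 29 accessory subunits 20.4 RPKM and the 4 assembly factors 4.73 RPKM.

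Complex IV held both the highest and the lowest levels outside complex V. Several of its subunits exist as pairs of isoforms, and its lowest levels were those of tissue-restricted isoforms. In each pair the widely expressed isoform was the abundant one in thymocytes. Cox4i1 had 111 to 138 RPKM and its lung isoform Cox4i2 0.09 to 0.34 RPKM. Cox6a1 had 103 to 124 RPKM and its heart and muscle isoform Cox6a2 0.15 to 0.37 RPKM. Cox8a had 37.1 to 46.8 RPKM, while Cox8b reached 0.18 RPKM and Cox8c had 0 reads in all libraries. Cox7b2 had 2 reads in all against 9134 for Cox7b, and Ndufa4l2 had 6 reads against 10180 for Ndufa4, which despite its name is a complex IV subunit. Partial exceptions were Cox6b2, the testis isoform, at 10.3% of the mean level of Cox6b1, and Cox7a1, the heart and muscle isoform, at 4.37% of Cox7a2.

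**Figure D2:**
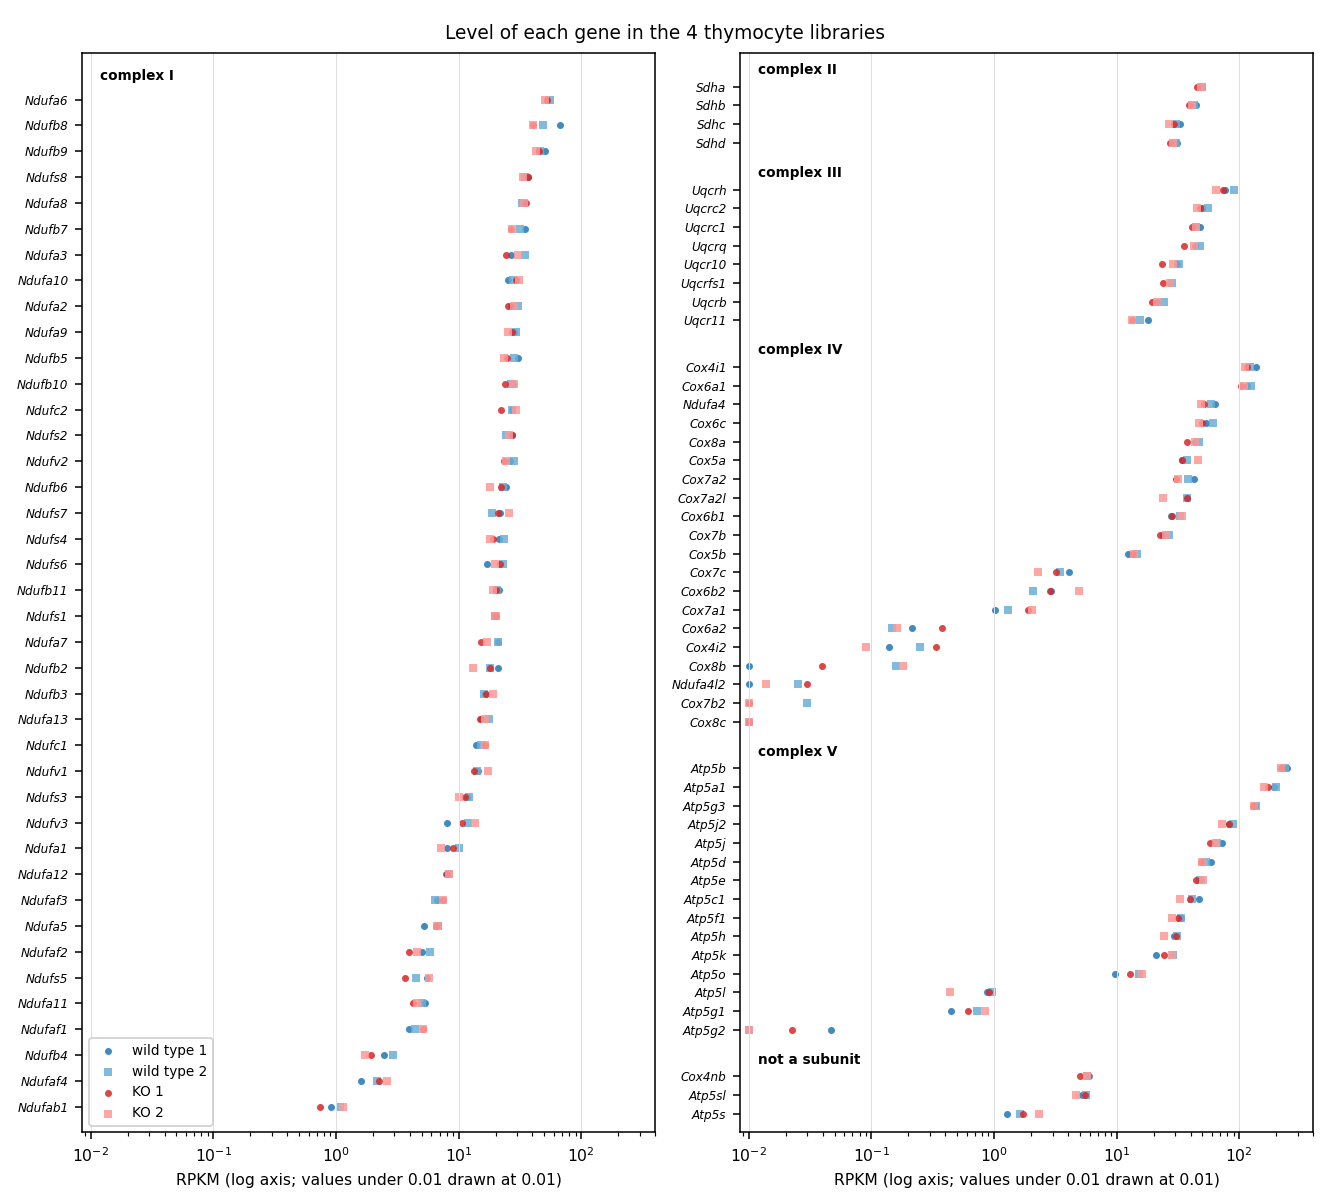
RPKM (log axis) of the 90 members in the 4 libraries, ordered by complex and by mean level; blue marks are wild type, red marks KO, circles replicate 1 and squares replicate 2. Atp5b lies highest, at 217 to 247 RPKM, and values under 0.01 RPKM, such as the 0 of Cox8c, are drawn at 0.01.

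For the comparison of KO with wild type, 85 of the 90 members had enough reads to be tested. None passed an adjusted p of 0.05 (edgeR quasi-likelihood test over 13733 genes). Across all genes 1 passed, so percent called was 0.00728. DESeq2 and limma-voom also called 0 members. At an unadjusted p under 0.05, 7 members were lower in KO and 0 higher, against 3.61% and 6.29% of all genes in these directions. The log2 fold change was negative in 60 of the 85 members, with a median of -0.127. Over all genes tested, 6711 of 13733 were negative and the median was 0.01.

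The 2 KO libraries lay below both wild types in 35 members, above both in 8, and overlapped them in 42. Over all genes these shares were 21.4% below and 23.3% above. In TMM-scaled CPM the shift was small and present in each KO library. The median log2 difference from the wild-type mean was -0.09 in KO replicate 1 and -0.11 in KO replicate 2. The TMM factors, by which library sizes are multiplied, were 0.932 and 0.990 in wild type, against 1.003 and 1.080 in KO. The part of these factors in the shift was not tested. The median difference between the 2 wild types was 0.04. As a share of all gene reads, which no TMM factor enters, the members held 0.733% and 0.734% in wild type. In KO they held 0.699% and 0.735%, so by that share KO replicate 2 was at the wild-type value. Such a summed share also weighs abundant members most, unlike a median over genes.

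Transcript length moved with these values. Members tested had a median length of 692 nt, against 2801 nt over all genes tested. Over all genes, the median log2 fold change was -0.84 up to 500 nt (n = 305), -0.06 from 501 to 1000 nt (n = 886) and 0.05 above 4000 nt (n = 3859). The members' medians were -0.22 in the first class (n = 15), -0.09 in the second (n = 41) and -0.12 from 1001 to 2000 nt (n = 22), where all genes had -0.03. All genes tested included small RNA genes and their hosts, whose share of each length class was not counted. Without them 13500 genes were tested, and 59 of 85 members were negative. With the length trend of each library removed, the members' median was -0.05 and 51 of 85 were negative. That trend was fitted with the small RNA genes included. The plot of change by length sets both series side by side.

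**Figure D3:**
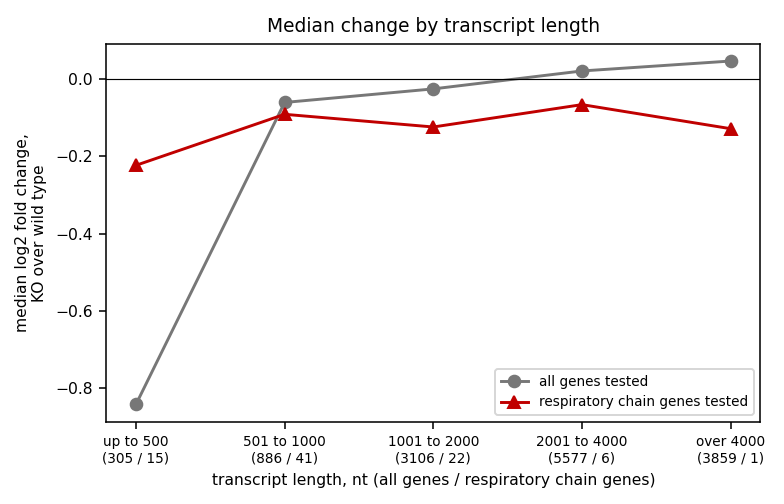
Median log2 fold change, KO over wild type, in 5 classes of transcript length, for all genes tested (grey circles) and respiratory chain genes tested (red triangles); the counts under each class give both numbers of genes. Genes up to 500 nt stand at -0.84 over all genes and at -0.22 over the respiratory chain genes. Small RNA genes were not left out of all genes tested.

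Complex I had the smallest median change of the 5 complexes, -0.09 over 40 genes, of which 25 were negative. With the length trend removed this median was 0.01. The accessory subunits, which surround the catalytic core, had 21 of 29 negative, and the core subunits 3 of 7. Ndufb8, an accessory subunit of the membrane arm, had 109.6, 74.4, 65.3 and 63.5 CPM. Wild-type replicate 1 stood apart, and both KO libraries lay below wild-type replicate 2. Its log2 fold change was -0.51 ± 0.18 (SE, n = 2 per group, edgeR adjusted p = 0.475).

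At the junctions of Ndufb8, the excess in wild-type replicate 1 was largest from exon 4 to exon 5, with 887, 190, 94 and 152 reads. Per 1000000 junction reads of each library this was 186, 30.9, 28.5 and 43.2. Wild-type replicate 1 was also the highest library at exon 1 to 2, with 85.3, 67.8, 57.8 and 48.4 per 1000000, and at exon 3 to 4, with 96.4, 55.3, 58.1 and 50.6 per 1000000. Exon 2 to 3 had only 9, 4, 10 and 2 reads. The 20 coding bases on each side of the junction from exon 4 to 5 follow, with those after it in capitals.
Ndufb8, exon 4 to 5, mm9 chr19:44624902-44627188, minus strand: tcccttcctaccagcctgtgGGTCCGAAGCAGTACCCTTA

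Among the other complex I subunits with the smallest p, Ndufa7 had 25.7, 24.2, 18.5 and 20.2 CPM. Its log2 fold change was -0.37 ± 0.14 (SE, edgeR adjusted p = 0.486). Ndufb7 had 47.8, 40.5, 35.3 and 35.1 CPM and a log2 fold change of -0.33 ± 0.13 (SE, edgeR adjusted p = 0.487). Both accessory subunits were lower in each KO library than in each wild type. Ndufa6, an accessory subunit and the most abundant complex I member per length, had 75.7, 75.4, 72.9 and 68.9 CPM. Its change of -0.09 ± 0.11 was within its error and turned to 0.03 with the length trend removed.

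The 4 assembly factors matched by the rule, which help to build complex I and are not part of it, had a median log2 fold change of 0.23. Ndufaf1, Ndufaf3 and Ndufaf4 were above both wild types in both KO libraries and Ndufaf2 below them. Over all genes, 23.3% lay above and 21.4% below. These 4 are named here after their values were seen. Ndufaf4 had 14.9, 18.9, 20.2 and 23.3 CPM, a log2 fold change of 0.37 ± 0.17 (SE, edgeR adjusted p = 0.515). Assembly factors outside the rule, 24 genes for complexes I to V, had a median of 0.04 with 14 positive and none called. The 3 of these with the smallest p were Cox18, an inserter of a complex IV subunit, at 0.55 (edgeR adjusted p = 0.487), Sdhaf2, which helps to attach flavin to Sdha, at -0.24 (edgeR adjusted p = 0.525) and Bcs1l, which inserts the Rieske protein into complex III, at 0.26 (edgeR adjusted p = 0.574).

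All 4 complex II genes had negative log2 fold changes, with a median of -0.13. Sdhc, a membrane anchor, had 99.3, 86.6, 86.0 and 76.1 CPM. The KO libraries lay below both wild types, with KO replicate 1 close to wild-type replicate 2, and the log2 fold change was -0.20 ± 0.13 (SE, edgeR adjusted p = 0.591). Sdhd had 101, 93.9, 86.8 and 90.2 CPM, and Sdhb, the iron-sulfur subunit, had 121, 111, 105 and 107 CPM. In both genes the groups did not overlap. Sdha had 348, 338, 323 and 340 CPM, and its groups overlapped. Its change of -0.05 ± 0.12 was 0.0039 with upper-quartile scaling and 0.08 from known-junction reads.

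Complex III had the most negative median, -0.20, with 8 of 8 genes negative. In 7 of 8 both KO libraries lay below both wild types, against 21.4% of all genes. All 5 small subunits were among these 7. Their median length was 499 nt, and over all genes up to 500 nt, small RNA genes included, the median log2 fold change was -0.84. Uqcrh, the hinge protein of the complex and its most abundant member per length, had 106, 119.5, 99.5 and 85.3 CPM, a log2 fold change of -0.29 ± 0.13 (SE, edgeR adjusted p = 0.510). Uqcr11 had 20.2, 16.3, 14.4 and 14.3 CPM (-0.35 ± 0.16 SE, edgeR adjusted p = 0.515), and Uqcr10 had 35.0, 33.9, 26.0 and 30.7 CPM (-0.28 ± 0.14 SE, edgeR adjusted p = 0.527). In each the groups did not overlap.

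The core protein Uqcrc2 had 239.9, 249.6, 225 and 209 CPM, with a log2 fold change of -0.17 ± 0.12 (SE, edgeR adjusted p = 0.610). Reads at known junctions were also tested per gene, with 0 of 83 members called (0.0302% of 9939 genes) and 6 at an unadjusted p under 0.05 (8.8% of all). This separate table of the same libraries gave other values for complex III. There its median was 0.03, and Uqcr10, with 652, 1053, 576 and 599 junction reads, had a log2 fold change of 0.12 ± 0.16. Uqcr11, with 134, 93, 35 and 53 junction reads, was again negative, at -0.78 ± 0.33 (SE, edgeR adjusted p = 0.513).

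In complex IV, 10 of the 16 genes tested were negative, with a median of -0.13. The widely expressed subunits had 9 of 11 negative, and the 4 tissue-restricted isoforms with enough reads were all positive at very low levels. Cox7a2, the widely expressed form of subunit VIIa, had the smallest p of all members. It had 82.6, 68.7, 57.2 and 58.0 CPM, so both KO libraries were below both wild types. Its log2 fold change was -0.39 ± 0.12 (SE, n = 2 per group, edgeR adjusted p = 0.452). Junction reads gave it -0.14 ± 0.19, with overlapping groups at 98.1, 78.5, 69.7 and 89.7 junction reads per 1000000.

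Its tissue counterpart Cox7a1 had 0.95, 1.14, 1.74 and 1.81 CPM, the largest positive change of the members at 0.76 ± 0.34 (SE, edgeR adjusted p = 0.506). That rests on 37, 58, 48 and 56 reads. The marker of muscle with enough reads to be tested, Actn2, had 1.34, 1.41, 2.43 and 2.55 CPM, with the KO libraries again above the wild types (edgeR adjusted p = 0.475). The other 5 muscle markers had at most 0.52 CPM in any library and did not share this order. Ckm and Myh1 were below both wild types in both KO libraries. Myh6, Tnnt2 and Mb were highest in KO replicate 2, with KO replicate 1 at or below both wild types. The part of the muscle markers in the value of Cox7a1 was not tested.

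Ndufa4 had 79.7, 69.4, 62.8 and 58.1 CPM, a log2 fold change of -0.30 ± 0.12 (SE, edgeR adjusted p = 0.486), and its groups did not overlap. Cox4i1 and Cox6a1, the most abundant complex IV genes per length, had changes of -0.21 ± 0.13 and -0.18 ± 0.11 (SE), also without overlap. Cox7a2l, a factor in the assembly of supercomplexes, had 109, 103, 108 and 66.6 CPM, so that KO replicate 2 alone was low. Without KO replicate 1 it was the only member to pass, at -0.68 ± 0.12 (SE, edgeR adjusted p = 0.0371), where the lone KO library is assumed to vary like the wild types. In that setting 427 of 14440 genes were called, or 2.96%. Its known-junction reads, at 43.3, 36.4, 41.4 and 32.0 per 1000000, set KO replicate 2 less far apart. Cox5a, a conserved nuclear subunit, had 60.5, 62.7, 59.2 and 77.6 CPM, with the same library high. Both genes are named after their values were seen.

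**Figure D4:**
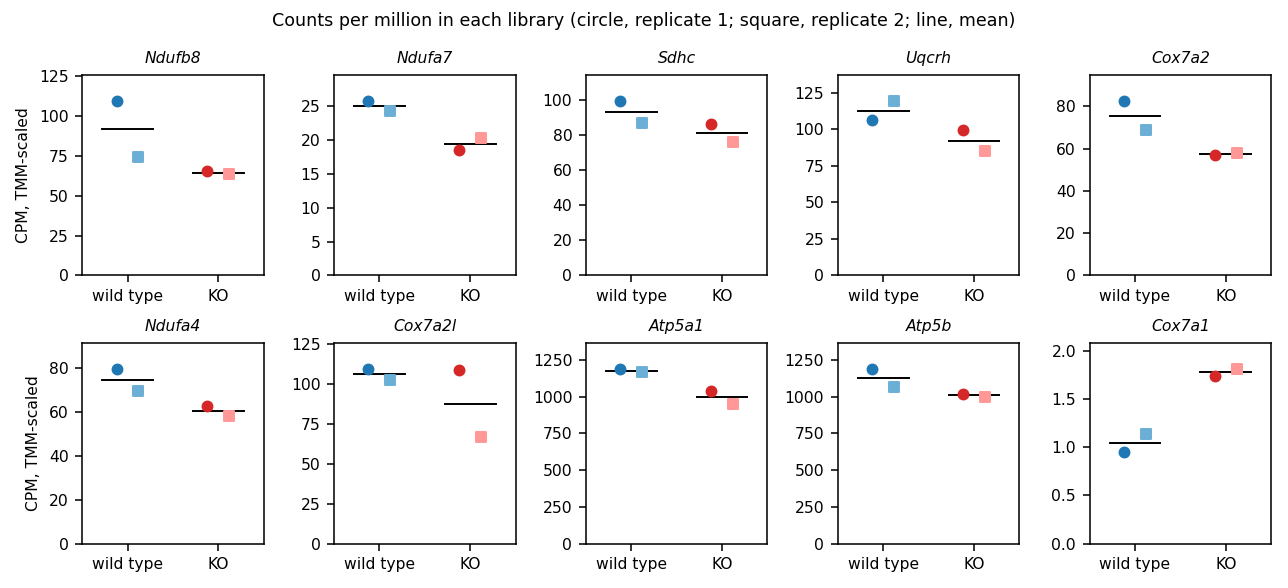
TMM-scaled CPM of 10 members in the 4 libraries (blue, wild type; red, KO; circles, replicate 1; squares, replicate 2; lines, group means; each axis starts at 0). Cox7a2 lies at 82.6 and 68.7 CPM in wild type and 57.2 and 58.0 in KO, while Cox7a2l is low in KO replicate 2 alone, at 66.6 CPM.

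Complex V had 11 of 14 negative and a median of -0.16. All 5 genes of the F1 head were negative. Atp5a1 had 1188, 1166, 1038 and 950 CPM, a log2 fold change of -0.24 ± 0.14 (SE, edgeR adjusted p = 0.561), and Atp5b had 1188, 1063, 1017 and 999 CPM, at -0.16 ± 0.14 (SE, edgeR adjusted p = 0.689). In both, the KO libraries were below the wild types. The gamma subunit Atp5c1, the central stalk, had 217, 177, 178 and 144 CPM, and its groups overlapped. Its log2 fold change was -0.29 ± 0.16 (SE, edgeR adjusted p = 0.550). The delta subunit Atp5d had 139, 119.9, 113 and 113 CPM, at -0.19 ± 0.12 (SE, edgeR adjusted p = 0.593). The stalk and membrane part had 6 of 9 genes negative. The 3 genes matched by name alone were Cox4nb, Atp5sl and Atp5s, with changes of -0.13, -0.09 and 0.47 and none called.

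**Figure D5:**
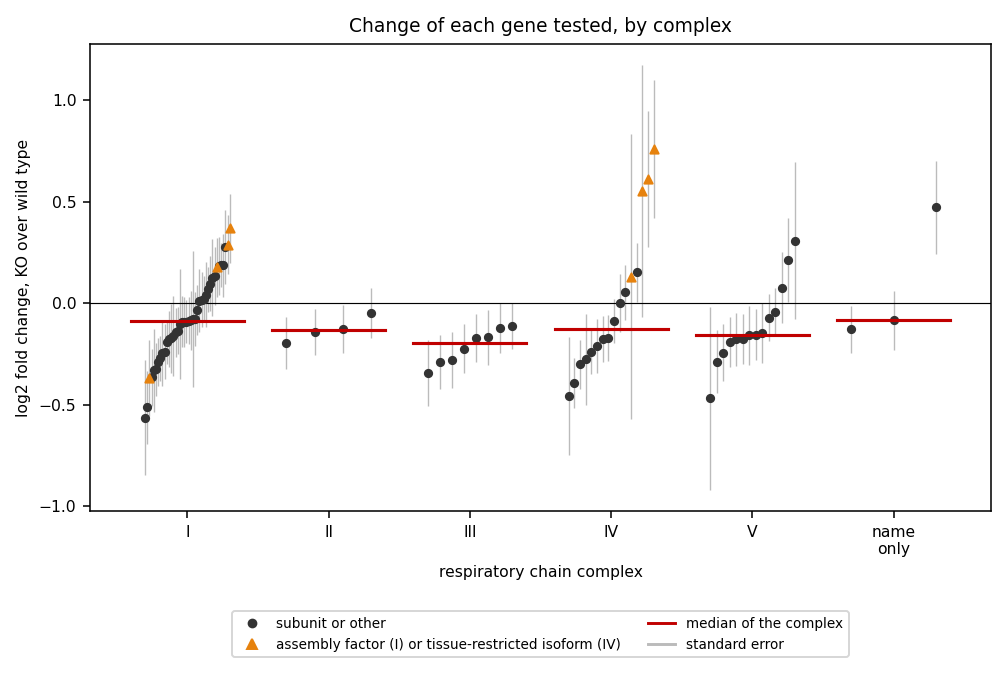
Log2 fold change, KO over wild type, of the 85 members tested, by complex, with standard errors (grey) and the median of each complex (red line); triangles are complex I assembly factors and tissue-restricted complex IV isoforms. All points of complexes II and III lie below 0, and no member passed an adjusted p of 0.05.

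The rest of oxidative metabolism was read from lists of genes outside the rule, with none called. Enzymes of the tricarboxylic acid cycle, which supply NADH and succinate, had 7 of 13 negative and a median of -0.01. Their smallest p belonged to fumarase, Fh1, at -0.19 (edgeR adjusted p = 0.616). The electron carrier list held Cyc1 of complex III and cytochrome c, Cycs, with changes of -0.09 and 0.01. Regulators of respiratory genes had 8 of 13 negative and a median of -0.08. Nrf1, a transcription factor of many nuclear mitochondrial genes, had 225, 213, 191 and 167 CPM, a log2 fold change of -0.29 ± 0.13 (SE, edgeR adjusted p = 0.501).

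Promoters of the members were searched for core motifs of 3 factors, on both strands, from 250 bases before to 50 bases after the RefSeq start (GRCm38.p6). An entry was found for 74 members. The NRF1 core GCGCATG was in 18.9% of these, against 7.69% of 10734 genes tested here with an entry and 4.41% of all 27025 genes with an entry. The YY1 core ATGGCGG was in 14.9%, against 8.93% and 4.69%, and the ETS core CCGGAAG, which GABP binds, in 23.0%, against 19.3% and 9.93%. Examples from members named above follow, all upstream of the start, with the motif or its reverse complement in capitals.
Sdhb, NRF1 core, chr4:140961198-140961244, plus strand: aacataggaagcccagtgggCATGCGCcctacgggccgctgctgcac
Uqcr11, ETS core, chr10:80406861-80406907, minus strand: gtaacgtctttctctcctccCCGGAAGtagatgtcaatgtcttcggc
Ndufa7, YY1 core, chr17:33824454-33824500, plus strand: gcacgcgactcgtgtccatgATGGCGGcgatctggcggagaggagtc
The median log2 fold change was -0.13 in the 13 tested members with the NRF1 core and -0.10 in the 58 without it. It was -0.17 in 17 members with the ETS core and -0.09 in the 54 without. For the YY1 core it was -0.16 in 11 members with it and -0.10 in the 60 without. A match describes these letters only and is not a binding site.

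Splicing of the members was read from the junction tables. Of 225929 known and 402 putative junction reads of members, the putative ones made up 0.178%, against 1.16% over all genes. The usage test compared each junction with the other junctions of its gene. It covered 375 member junctions in 80 genes, of which none passed an adjusted p of 0.05 (edgeR diffSpliceDGE), against 4 of 95139 junctions of all genes, or 0.0042%. At an unadjusted p under 0.05 there were 8 member junctions, or 2.13%, against 2.55% of all.

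The 5 with the smallest p each had an adjusted p near 1. The Ndufa13 junction at mm9 chr8:72418474-72419141, in a subunit also known as GRIM-19, had 4, 20, 55 and 9 reads, with KO replicate 1 alone high. The Ndufv2 junction at chr17:66428927-66430151, in the 24 kDa iron-sulfur subunit, had 151, 188, 59 and 58 reads. It held 14.2% of the gene's junction reads in both wild types, against 8.85% and 7.82% in KO. The Sdhd junction at chr9:50408769-50411843 had 10, 6, 0 and 1 reads, and the Atp5g2 junction from exon 3 to 4 had 27, 73, 54 and 50. The Ndufs7 junction at chr10:79715178-79715819, in a core iron-sulfur subunit, had 14, 27, 25 and 32 reads.

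Exon inclusion could be tested for 22 exons in 17 members, and 0 passed (edgeR quasi-likelihood test, 3107 exons, percent called 0). At an unadjusted p under 0.05 there were 0 member exons and 5.86% of all exons. The smallest p values came from exons of Cox4i1, Cox6a1 and Cox5b whose skipping rested on 5 reads in a single wild-type library each. Inclusion of these was 98.2% to 100% in every library. A pair of neighbouring exons of Ndufa9, of 103 and 68 nt, had inclusion of 97.3% and 96.9% in wild type and 89.1% and 89.2% in KO. They share 1, 1, 2 and 3 skipping reads. For each, inclusion was counted with a putative junction that skips the other exon of the pair. With known inclusion junctions and another skipping junction, inclusion of the 103 nt exon was 99.2% in wild type and 98.9% in KO.

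Ndufv3 had a common alternative exon. Its exon 3 of 1092 nt lies in the coding sequence and is present in the long form of this complex I subunit only. The bases that meet in each form are shown, 20 before the junction in lower case and 20 after it in capitals, all coding and on the plus strand of mm9 chr17.
Ndufv3, exon 2 to 3, chr17:31658637-31664255: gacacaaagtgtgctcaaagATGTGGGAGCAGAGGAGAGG
Ndufv3, exon 3 to 4, chr17:31665346-31668055: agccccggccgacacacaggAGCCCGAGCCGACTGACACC
Ndufv3, exon 2 to 4, chr17:31658637-31668055: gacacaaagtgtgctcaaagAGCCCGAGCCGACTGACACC
Inclusion of exon 3, the mean of its 2 junctions over that mean plus skipping, was 17.2%, 16.2%, 29.4% and 28.4%. The KO libraries were higher than the wild types, without overlap, and the change did not pass (edgeR quasi-likelihood test, adjusted p = 0.899).

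The 2 junctions of exon 3 did not move together. Exon 2 to 3 had 10, 15, 3 and 14 reads, exon 3 to 4 had 5, 9, 22 and 5 reads, and the skipping junction 36, 62, 30 and 24. In KO replicate 1 the higher inclusion rested on the second junction, and in KO replicate 2 on the first. The density of reads inside the exon gave the opposite order, without overlap. Taken from the long transcript row less the short one, it was 48.6% and 45.1% of that over the short transcript for wild type. For KO it was 44.5% and 37.8%, so wild-type replicate 2 and KO replicate 1 were close. This density was not tested.

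Ndufs1, the largest core subunit of complex I, also had an exon that was often left out, named here after its values were seen. The exon of 104 nt at mm9 chr1:63218728-63218831 had 55, 29, 25 and 18 reads on one of its skipping junctions. Inclusion against that junction was 62.6%, 67.6%, 54.5% and 63.6%, with overlapping groups (edgeR quasi-likelihood test, adjusted p = 0.979). Against a second skipping junction, with 21, 35, 10 and 16 reads, it was 81.5%, 62.0%, 73.3% and 64.0%, again with overlap (adjusted p = 0.986, same test in edgeR).

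Atp5c1, the gamma subunit, has an alternative exon of 37 nt that muscle leaves out and most other tissues keep. It is exon 9 of 10, at mm9 chr2:9978397-9978433, where the reading frame of the inclusive form ends. Thymocytes kept it in every library. Its upstream junction had 27, 42, 15 and 35 reads and its downstream junction 257, 249, 139 and 133 reads. The skipping junction had 3 reads in wild-type replicate 1 and 0 in the others, too few for a test.

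Counts of 10 members could include reads of an overlapping gene. In 7 of them the other gene lies on the opposite strand only, among them Atp5f1 with Wdr77 and Ndufa13 with Tssk6, and no source used here gives the strand setting of the counts. In Ndufs5, Atp5b and Atp5j another listed gene lies on the same strand.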

How the data were processed

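RNA of total thymocytes was depleted of ribosomal RNA, fragmented with RNase III and sequenced by SOLiD chemistry, each of 2 slides holding 2 samples, per the labels' protocols. The authors deposited, per library, read counts per RefSeq transcript with their ratio to transcript length (reads per nt) and RPKM, on mm9 per the submitters' processing notes. Only primary alignments of mapping quality 10 or more were counted, per the file headers. A second deposited table gives read counts per known or putative junction. No source used here names the aligner.

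One transcript row per symbol, that with the most reads, was used. The deposited RPKM differed by under 0.05% from values recomputed from reads, length and header totals and served for levels only. The gene test was that of edgeR 4.0.16 under R 4.3.3 (TMM, filterByExpr, robust quasi-likelihood F test, Benjamini-Hochberg over all 13733 genes, threshold 0.05). CPM values are TMM-scaled. Junctions needed at least 10 reads over the libraries (diffSpliceDGE). Exons needed at least 10 inclusion plus skipping reads in every library. Scripts were tested on simulated data. Alternatives included DESeq2 1.42.0 and limma-voom (limma 3.58.1), other scalings, no filter, removal of a length trend, junction reads, a replicate block and leaving out each library. Sequences come from GENCODE M21 transcripts, matched by RefSeq accession (90 of 90 members), and junctions were matched by equal intron length. Promoters come from RefSeq, GRCm38.p6. The members and lists were chosen with earlier results of these data known. Named genes were, per complex, the 3 with the smallest p and the 2 with the highest level, the isoform pairs, the lowest members, and the 5 junctions and 5 exons with the smallest p.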

Additional observations from a re-analysis of the deposited data

How the results depend on the processing

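No member was called in the gene, junction or exon tests under the planned settings, with 1 exception. Leaving out each library in turn gave 0 to 1 members called, the 1 being Cox7a2l without KO replicate 1, and medians of the members from -0.142 to -0.0898. The median was -0.0742 with upper-quartile scaling, where the median of all genes was 0.06, and -0.0471 with the length trend removed. It was negative under every setting run. Each of these scaled the libraries to each other, and none used plain library totals. Signs turned for Sdha with upper-quartile scaling (0.0039), for Ndufa6 with the length trend removed (0.0274), and from known-junction reads for Ndufa6 (0.21), Sdha (0.0792) and Uqcr10 (0.12). The other 309 recomputed fold changes of the 21 named genes kept their sign and side of the threshold.

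The number of genes called over the whole table ranged from 0 to 427, the highest without KO replicate 1, with 113 by DESeq2 and 62 without the filter on low counts. With the replicate number as a block, 121 genes were called, 0 of them members, and the members' median was -0.13. Same-numbered libraries deviated together with a correlation of 0.28 over 13733 genes and 0.10 over the 85 members. Nothing in the labels says that the numbers mark a shared litter, day or slide. The block changed no call in the junction and exon tests of members either. Known-junction reads, tested per gene, gave 57 of 83 members a negative change and a median of -0.12, with 66 of 82 having the same sign as in the transcript counts. At an unadjusted p under 0.05 were 6 members, against 8.8% of 9939 genes. Atp5g2, with 4 transcript reads, could not be tested by transcript counts.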
